A study of Mus musculus with 12 samples.

Results

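The genes described here encode 10 enzymes of glycolysis: the hexokinase Hk2, the glucose-6-phosphate isomerase Gpi1, the phosphofructokinase subunits Pfkp and Pfkl, the aldolase Aldoa, the triosephosphate isomerase Tpi1, the phosphoglycerate kinase Pgk1, the phosphoglycerate mutase Pgam1, the enolase Eno1 and the lactate dehydrogenase subunit Ldha. They were taken by gene symbol, and all 10 were found among the 12516 symbols of the expression table. RNA came from Oct4-positive germ cells of single female mouse embryos at embryonic day 13.5. In 6 embryos the mother had been withdrawn from vitamin C over the first 2 weeks of gestation, and in the other 6 she had been supplied with it at a physiological level. Embryos of both groups were Gulo-/- on a C57BL/6 background, so none could make vitamin C and no group with a working Gulo gene is compared here.

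Glycolysis converts glucose to pyruvate in the cytosol. Its early steps, from hexokinase to phosphofructokinase, spend ATP to phosphorylate and commit the sugar, and its later steps, from phosphoglycerate kinase onwards, return ATP. Lactate dehydrogenase interconverts pyruvate and lactate and so restores the NAD+ that the pathway consumes. Most steps have several isoenzymes whose genes are used in different tissues. Many of these genes are known targets of the hypoxia-inducible factor HIF-1, whose prolyl hydroxylases can use vitamin C as a cofactor, and of Myc proteins. In the mouse, germ cells of the fetal gonad and pluripotent stem cells are known to differ in how far they rely on glycolysis.

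Values are normalized log2 expression. A difference of 1 is read here as a doubling, though the exact transformation is not given in the sources used here. Library medians lay between 8.07 and 8.14, and correlations between libraries across genes were 0.987 to 0.999. Sequencing depth is unknown, and so is the counting error of each value. Each title begins with a number, 1 to 4, that is used under both diets; the labels do not say whether embryos of 1 number and diet share a mother, and p values treat all 12 as independent. In these sorted cells 9 of 10 germ cell markers lay above the median gene under each diet and 0 of 20 somatic markers did. Of 10 erythroid markers 0 were among the listed symbols.

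In germ cells of withdrawn embryos, 4 of the 10 enzymes were higher and 0 were lower at a limma adjusted p below 0.05. They were Pfkp, which catalyses the committing step, and Pgk1, Pgam1 and Eno1, which act one after another in the later steps of the pathway. At an unadjusted p below 0.05, 5 were higher and 0 lower. The share of all genes at that unadjusted threshold was not computed, so counts at it, here and below, have no background. An exact permutation test adjusted over all genes called 2 higher, Pgk1 and Eno1 (adjusted p = 0.0482 each), and 0 lower. Pfkp and Pgam1 missed the threshold by that test (adjusted p = 0.0754 each), which called 558 of all genes in either direction. Across all 12432 genes tested, 6.22% were called higher and 7.75% lower, or 14.0% in either direction. The log2 fold change, withdrawn minus supplied, was positive for 9 of the 10 enzymes, against 46.6% of all genes tested. Its median was 0.19 over the enzymes and -0.0093 over all genes. The called changes were small, between 1.17-fold and 1.51-fold.

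The calls depended on the 4 embryos of title number 4, which are withdrawn replicates 5 and 6 and supplied replicates 5 and 6. Without them 0 of the 10 enzymes and 49 of all genes were called. The 4 log2 fold changes were 0.22 for Pfkp (adjusted p = 0.243), 0.17 for Pgk1 (adjusted p = 0.241), 0.20 for Pgam1 (adjusted p = 0.264) and 0.14 for Eno1 (adjusted p = 0.323). All 4 kept their sign. Averaging the embryos that share a title number and diet also ended the 4 calls. The log2 fold changes were then 0.46 for Pfkp (adjusted p = 0.0889), 0.25 for Pgk1 (adjusted p = 0.0821), 0.28 for Pgam1 (adjusted p = 0.103) and 0.21 for Eno1 (adjusted p = 0.112). Log2 fold changes of somatic markers were mostly negative. Of 20 kept, 18 were negative and 2 positive, where 46.6% of all genes tested were positive. At an unadjusted limma p below 0.05, 12 of the 20 were lower and 0 higher. By adjusted p only 1, the transcription factor gene Lhx2, was called lower (log2 fold change -0.24, adjusted p = 0.0341), where 7.75% of all genes were. The collagen gene Col3a1 followed at -0.36 (adjusted p = 0.0569). The mean of the 20 markers per embryo ranged from 4.83 to 4.94 in withdrawn and from 4.87 to 5.11 in supplied embryos. With that mean as a covariate 0 enzymes and 1 gene in all were called. The 4 log2 fold changes were 0.57 for Pfkp, 0.24 for Pgk1, 0.31 for Pgam1 and 0.20 for Eno1, with adjusted p values of 0.130, 0.181, 0.144 and 0.236 in that order. In bulk samples fewer cells of a type and less RNA per cell cannot be told apart.

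**Figure D1:**
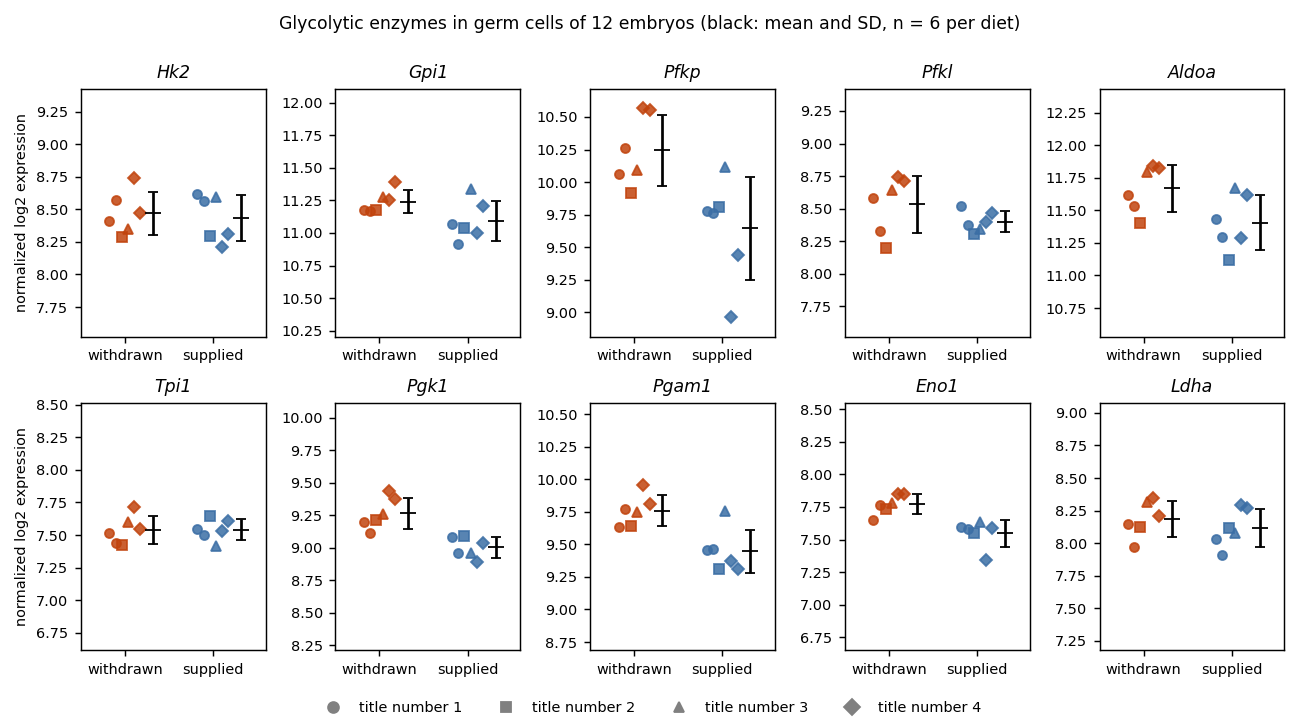
Normalized log2 expression of the 10 enzymes in each embryo, withdrawn left and supplied right in each panel, with symbols by title number and the mean and SD (n = 6 per diet) in black; each vertical axis spans the same log2 width. Withdrawn and supplied values do not overlap for Pgk1 and Eno1, and title number 4 lies at both extremes of Pfkp.

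Among the genes of the early steps, Hk2 encodes the hexokinase isoenzyme that is prominent in muscle, fetal tissue and tumours. Its lowest, median and highest values were 8.28, 8.44 and 8.74 in withdrawn embryos, against 8.21, 8.44 and 8.62 in supplied embryos. The groups lay over each other, and the log2 fold change was 0.04 (SE 0.09, adjusted p = 0.814). Gpi1, which converts glucose-6-phosphate to fructose-6-phosphate, had 11.17, 11.22 and 11.39 in withdrawn embryos, against 10.92, 11.05 and 11.34 in supplied embryos. All 6 withdrawn embryos lay above the supplied mean, yet supplied replicate 4 lay above 5 of them, and the log2 fold change was 0.15 (SE 0.07, adjusted p = 0.167).

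Pfkp and Pfkl encode the platelet and liver types of the phosphofructokinase subunit, which phosphorylates fructose-6-phosphate. Pfkp had a lowest value of 9.92, a median of 10.18 and a highest value of 10.57 in withdrawn embryos, against 8.96, 9.77 and 10.11 in supplied embryos. It averaged 10.24 ± 0.27 in withdrawn and 9.64 ± 0.40 in supplied embryos (SD, n = 6 each). The rise of Pfkp was 0.60 on the log2 scale (SE 0.14, adjusted p = 0.00964), or 1.51-fold. The 2 highest withdrawn values, 10.57 and 10.56, and the 2 lowest supplied values, 8.96 and 9.44, were those of title number 4, and supplied replicate 4, at 10.11, lay within the withdrawn range. Pfkl had 8.20, 8.61 and 8.74 in withdrawn embryos, against 8.31, 8.38 and 8.52 in supplied embryos. Here 4 withdrawn embryos lay above every supplied one and the other 2 below the supplied mean, and its log2 fold change was 0.13 (SE 0.09, adjusted p = 0.308).

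Aldoa encodes the main aldolase of most tissues, which splits fructose-1,6-bisphosphate. Its values were 11.40, 11.70 and 11.84 (lowest, median, highest) in withdrawn embryos, against 11.12, 11.36 and 11.67 in supplied embryos. The log2 fold change of 0.26 was as large as that of Pgk1 but missed the threshold (SE 0.09, adjusted p = 0.0579), with 5 of 6 withdrawn embryos above the supplied mean. Of 29 alternatives 8 called Aldoa and 21 did not. Its adjusted p was 0.0173 without supplied replicate 4, 0.0462 without supplied replicate 6, 0.0245 without withdrawn replicate 3 and 0.0492 with median centring. It was 0.131 with quantile normalization, 0.178 by the exact permutation test, 0.336 without title number 4 and 0.559 with the somatic marker covariate. Tpi1, which interconverts the triose phosphates, had 7.42, 7.53 and 7.72 in withdrawn embryos, against 7.41, 7.54 and 7.65 in supplied embryos. Its groups lay over each other, and its log2 fold change was -0.00066 (SE 0.07, adjusted p = 0.996).

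Among the genes of the later steps, Pgk1 encodes the kinase of the first ATP-yielding step and lies on the X chromosome. It had 9.12, 9.23 and 9.43 in withdrawn embryos, against 8.89, 9.0 and 9.09 in supplied embryos. Every withdrawn value was above every supplied value, which held for 2.15% of all genes tested. Pgk1 averaged 9.27 ± 0.12 in withdrawn and 9.0 ± 0.08 in supplied embryos (SD, n = 6 each) and rose by 0.26 on the log2 scale (SE 0.07, adjusted p = 0.0160), or 1.2-fold.

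Pgam1, which moves the phosphate group of 3-phosphoglycerate, had 9.63, 9.76 and 9.96 in withdrawn embryos, against 9.31, 9.41 and 9.76 in supplied embryos. The groups overlapped through supplied replicate 4 alone, at 9.76; the other 5 supplied embryos lay below all withdrawn ones. Pgam1 averaged 9.76 ± 0.12 in withdrawn and 9.45 ± 0.17 in supplied embryos and rose by 0.31 on the log2 scale (SE 0.08, adjusted p = 0.0131), or 1.24-fold. Without supplied replicate 4 the log2 fold change was 0.38 (adjusted p = 0.00135), and without title number 1 it was 0.35 and not called (adjusted p = 0.0617).

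Eno1, the enolase of most tissues, had 7.65, 7.77 and 7.85 in withdrawn embryos, against 7.35, 7.58 and 7.63 in supplied embryos, again with no overlap. The groups did overlap for Gm5506, a related row with higher values, and for the sum of both, given below. Eno1 averaged 7.77 ± 0.08 in withdrawn and 7.55 ± 0.10 in supplied embryos. Eno1 rose by 0.22 on the log2 scale (SE 0.07, adjusted p = 0.0298), or 1.17-fold. Of the 4 calls it was lost most often, in 9 of 29 alternatives, among them those without supplied replicate 5 (adjusted p = 0.0917), withdrawn replicate 4 (adjusted p = 0.0531) or withdrawn replicate 6 (adjusted p = 0.0654). It was also lost with a random effect of title number and diet (adjusted p = 0.0719 with an estimated correlation), where 3 of the 10 enzymes were called higher.

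Ldha encodes the muscle-type subunit of lactate dehydrogenase. It had 7.97, 8.18 and 8.35 in withdrawn embryos, against 7.91, 8.10 and 8.29 in supplied embryos. The groups overlapped over nearly their whole range, and the log2 fold change was 0.07 (SE 0.08, adjusted p = 0.594).

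Reads of several of these genes may be divided with near-identical copies, and how such reads were counted is not given in the sources used here. The table lists Gm5506, a symbol that RefSeq gives as a synonym of Eno1b, the retrotransposed copy of Eno1. Its lowest, median and highest values were 10.37, 10.54 and 10.80 in withdrawn embryos, against 9.88, 10.07 and 10.48 in supplied embryos. Gm5506 rose by 0.43 on the log2 scale (SE 0.09, adjusted p = 0.00490), with 6 of 6 withdrawn embryos above the supplied mean. The groups overlapped, since supplied replicate 4, at 10.48, lay above 2 withdrawn embryos. With Eno1 and Gm5506 summed on the linear scale, the log2 difference was 0.40 (exact permutation p = 0.00649, unadjusted). The lowest withdrawn sum, 10.59, lay below the highest supplied sum, 10.67. Gm5506 was not called without title number 4, with the somatic marker covariate or by the exact permutation test. Aldoart1, a retrogene of Aldoa, had a log2 fold change of 0.22 that missed the threshold (adjusted p = 0.104). Of the 10 related copies looked for, 3 were listed.

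Among withdrawn embryos, some held the highest or lowest value of several enzymes. Withdrawn replicate 5 held the highest withdrawn value for 8 of the 10 and withdrawn replicate 6 for the other two, and both lay above the mean of all 12 embryos for every enzyme. Withdrawn replicate 3 was the lowest withdrawn embryo for 5 enzymes (Hk2, Pfkp, Pfkl, Aldoa and Tpi1). Among supplied embryos, replicate 4 was the highest for 5 enzymes (Gpi1, Pfkp, Aldoa, Pgam1 and Eno1) and the lowest for Tpi1. Supplied replicate 5 was the lowest for 4 (Hk2, Pfkp, Pgk1 and Eno1) and the highest for Ldha, and supplied replicate 3 was the highest for Tpi1 and Pgk1 and the lowest for Pfkl and Aldoa. Averaged over the 10 enzymes, embryos lay between -0.05 and 0.28 of the mean of all embryos in the withdrawn group and between -0.24 and 0.02 in the supplied group. The highest and the lowest of these averages, withdrawn replicate 5 and supplied replicate 5, both carry title number 4.

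**Figure D2:**
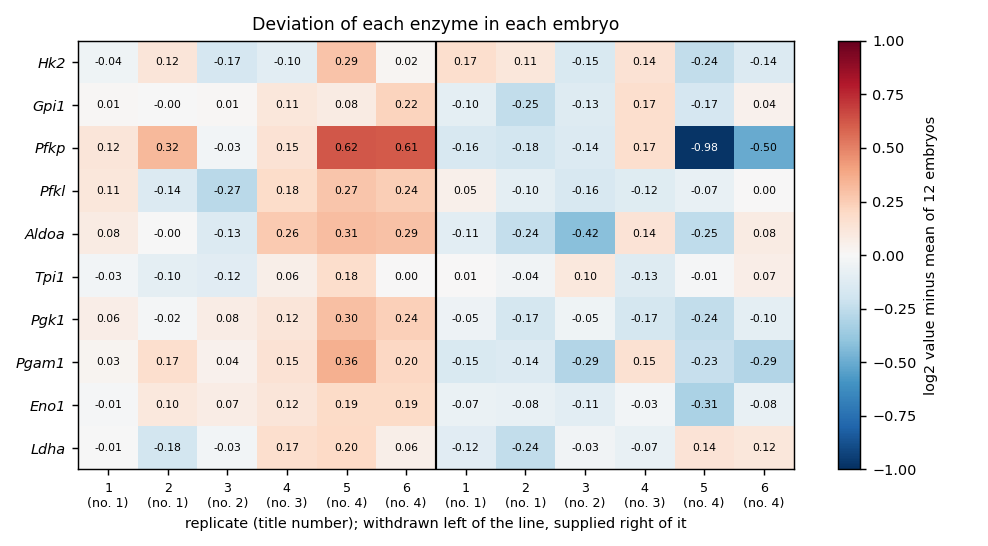
Log2 value of each enzyme (rows) in each embryo (columns; withdrawn left of the line, supplied right, title number in brackets) minus the mean of the 12 embryos. Withdrawn replicates 5 and 6 are above that mean for all 10 enzymes, and Pfkp has the widest spread.

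The remaining isoenzymes of the same steps filled in parts of the pathway that the 10 genes leave out. Of 18 further isoenzyme genes, 9 were listed and kept, and 3 were called higher and 0 lower, with a median log2 fold change of 0.09. Of all genes, 6.22% were called higher and 7.75% lower. Pkm2, listed under an older symbol of the pyruvate kinase gene Pkm, rose by 0.38 (SE 0.08, adjusted p = 0.00427); it had 12.61, 12.80 and 13.07 in withdrawn embryos, against 12.24, 12.44 and 12.62 in supplied embryos. Ldhb, the heart-type lactate dehydrogenase subunit, rose by 0.32 (SE 0.07, adjusted p = 0.00682), and its withdrawn values, 10.82 to 11.21, lay above all supplied values, 10.51 to 10.76. Hk1, the hexokinase isoenzyme of most tissues, rose by 0.38 (SE 0.09, adjusted p = 0.00925), with values of 9.43 to 9.72 in withdrawn embryos, against 8.87 to 9.57 in supplied embryos. Gapdh, the dehydrogenase that makes 1,3-bisphosphoglycerate, had a log2 fold change of 0.22 that missed the threshold (SE 0.09, adjusted p = 0.0902). Ldhc, the testis type of lactate dehydrogenase, averaged 3.73 under each diet, little above the filter of 3.32.

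Counted by step, 7 of 11 reactions from hexokinase to lactate dehydrogenase had an isoenzyme called higher by limma. A step with up to 3 isoenzymes counts where any is called, so the share of single genes called is no background for this count, and none was computed. The 4 without one were those of glucose-6-phosphate isomerase, aldolase, triosephosphate isomerase and glyceraldehyde-3-phosphate dehydrogenase. The exact permutation test called fewer isoenzymes: 2 of the 10 enzymes, Pgk1 and Eno1, and 1 of the 9 others. Steps were not recounted by that test. None of the isoenzymes was called without title number 4 or with the somatic marker covariate.

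**Figure D3:**
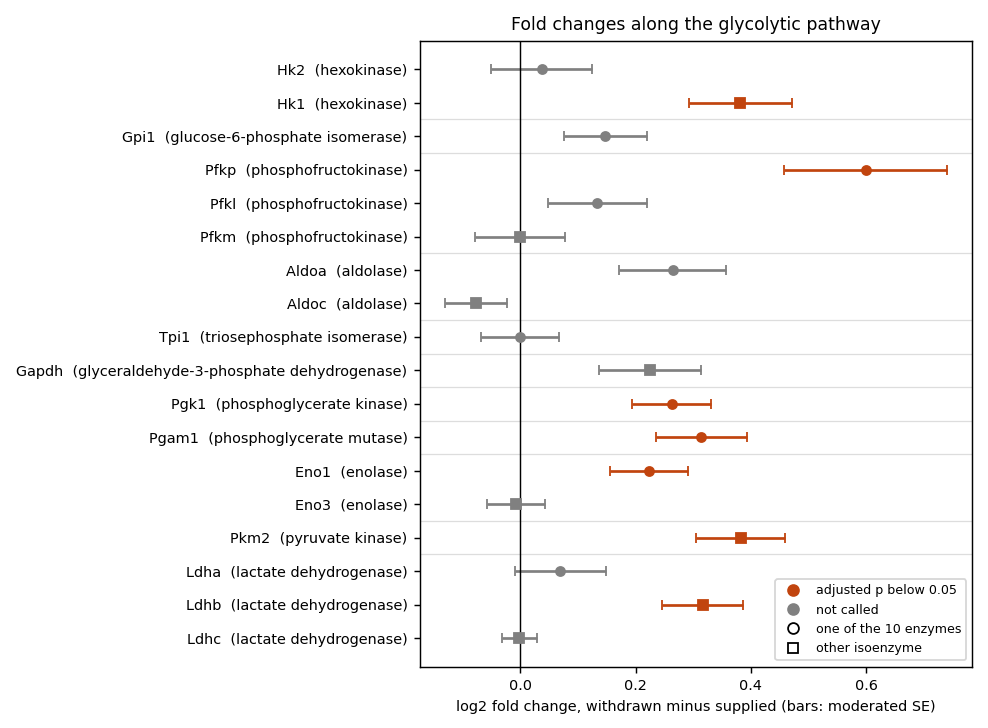
Log2 fold change, withdrawn minus supplied, with its moderated SE (bars) for 18 isoenzyme genes in pathway order; circles are the 10 enzymes, squares other isoenzymes, and orange marks an adjusted p below 0.05. The 7 called genes lie between 0.22 and 0.60. At the hexokinase, phosphofructokinase, enolase and lactate dehydrogenase steps 1 isoenzyme is called and the others are not, Pfkl lying at 0.13.

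At 3 steps, isoenzymes were compared within each embryo as the difference of their log2 values, in 4 pairs. Each pair sets a gene called by limma against one that was not, and Pfkp enters both phosphofructokinase pairs. The p values of the pairs are therefore not separate from those calls. Aldoa with Aldoc and Eno1 with Eno3 were not compared. Hk2 minus Hk1 averaged -1.16 ± 0.16 in withdrawn and -0.81 ± 0.12 in supplied embryos (SD, n = 6 each), a difference of -0.34 (exact two-sided permutation p = 0.00433, adjusted over the 4 pairs p = 0.0173). Its values were -1.35 to -0.93 in withdrawn embryos and -0.97 to -0.66 in supplied embryos, so that the groups overlapped only at their ends. Pfkp minus Pfkl averaged 1.71 ± 0.20 in withdrawn and 1.25 ± 0.42 in supplied embryos, a difference of 0.47 (exact permutation p = 0.0281, adjusted p = 0.0390). Pfkp minus Pfkm, the muscle-type subunit, averaged 1.35 ± 0.35 in withdrawn and 0.75 ± 0.51 in supplied embryos, a difference of 0.60 (exact permutation p = 0.0390, adjusted p = 0.0390). Ldha minus Ldhb averaged -2.79 ± 0.12 in withdrawn and -2.54 ± 0.22 in supplied embryos, a difference of -0.25 (exact permutation p = 0.0368, adjusted p = 0.0390).

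In withdrawn embryos the differences lay toward Hk1, Pfkp and Ldhb. Without title number 4 the hexokinase difference was -0.37 (exact permutation p = 0.0286, the smallest that the 8 remaining embryos allow, adjusted p = 0.114), while those of Pfkp with Pfkl, Pfkp with Pfkm and Ldha with Ldhb were 0.16, 0.12 and -0.10, with exact permutation p values of 0.343, 0.514 and 0.4. The hexokinase difference passed in each of the 12 fits without 1 embryo (adjusted p up to 0.0346). With embryos of a title number and diet averaged it was -0.34 and missed the threshold (exact permutation p = 0.0286, adjusted p = 0.114). The other pairs missed the threshold without withdrawn replicate 2, 5 or 6 or supplied replicate 1, 5 or 6, both Pfkp pairs also without supplied replicate 2, and Ldha with Ldhb also without supplied replicate 3, with adjusted p values up to 0.0779.

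**Figure D4:**
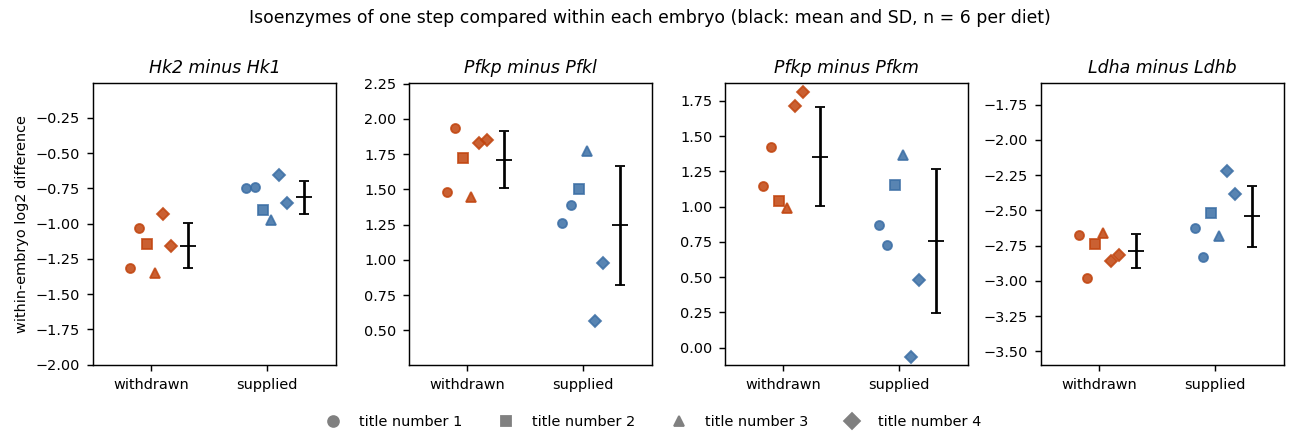
Within-embryo difference of log2 values for 4 isoenzyme pairs, withdrawn left and supplied right, symbols by title number, mean and SD (n = 6 per diet) in black. Hk2 minus Hk1 averaged -1.16 in withdrawn and -0.81 in supplied embryos, and supplied title number 4 holds the lowest values of both Pfkp pairs.

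Beside the pathway, genes that supply it or use its products were counted by list, and 0 of these lists' genes were called without title number 4. The shares of all genes to set beside the limma counts are 6.22% higher and 7.75% lower. Of 6 kept genes of glucose and lactate transport, 1 was called, the high-affinity glucose transporter Slc2a3, which rose by 0.43 (SE 0.07, adjusted p = 0.00219) with no overlap: 10.24 to 10.44 in withdrawn embryos, against 9.71 to 10.14 in supplied embryos. Bsg, the chaperone of lactate transporters, was at 0.22 (adjusted p = 0.0655). Of 13 genes of pyruvate entry into mitochondria, 2 were higher and 0 lower by limma, and 0 were called in either direction by the exact permutation test. At an unadjusted p below 0.05, 2 were higher and 2 lower, without a share of all genes to set beside them. The 2 lower ones, named after their values were seen, were the kinase gene Pdk3 at -0.19 (adjusted p = 0.147) and the phosphatase gene Pdp1 at -0.17 (adjusted p = 0.106). Brp44l, an older symbol of the pyruvate carrier subunit Mpc1, rose by 0.31 (SE 0.07, adjusted p = 0.00867), and Pdk1, the kinase that inhibits pyruvate dehydrogenase, by 0.30 (SE 0.08, adjusted p = 0.0212). The other carrier subunit, Mpc2, listed as Brp44 and named after its value was seen, was at -0.13 (adjusted p = 0.257).

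Of 11 regulators of glycolytic flux or of glycolytic genes, 0 were called by limma or by the exact permutation test and 2 had an unadjusted p below 0.05, both higher. Mycn was at 0.18 (adjusted p = 0.109), Pfkfb3, which makes the allosteric activator of phosphofructokinase, at 0.19 (adjusted p = 0.135), and Hif1a, named after its value was seen, at -0.05 (adjusted p = 0.722). In the pentose phosphate pathway, which branches off at glucose-6-phosphate, 1 of 8 was higher, Taldo1 (0.22, SE 0.06, adjusted p = 0.0261), and H6pd was at -0.21 (adjusted p = 0.0910). In the tricarboxylic acid cycle 1 of 16 was higher, where 6.22% of all genes were. This was the isocitrate dehydrogenase subunit Idh3b (0.32, SE 0.08, adjusted p = 0.0169), and Suclg2 was at 0.21 (adjusted p = 0.0898). Of 6 genes of gluconeogenesis and glycerol phosphate and 3 of the serine branch, 0 were called by either test, and at an unadjusted p below 0.05 there was 1 in the first list, lower, and 0 in the second. G6pc3 was at -0.12, Gpd1 at 0.05, Phgdh at -0.06 and Psph at 0.05. The medians of these lists lay between -0.0089 and 0.09, against 0.19 for the 10 enzymes.

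The cells' own markers changed beside the enzymes. Of 10 germ cell markers, 5 were higher in withdrawn embryos (Pou5f1, Dppa5a, Tfap2c, Dppa3 and Dnd1) and 3 lower (Dazl, Ddx4 and Mael). Of all genes, 6.22% were higher and 7.75% lower. Without title number 4, 0 of these markers were higher and 1 lower. By the exact permutation test 1 was higher and 1 lower, and with the somatic marker covariate 0 were called in either direction. Pou5f1, which encodes Oct4, the protein named in the sort, ranged from 12.73 to 13.22 in withdrawn and from 12.25 to 12.88 in supplied embryos. The part of these marker changes, and of the somatic markers above, in the enzyme results was not tested beyond the covariate fit.

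**Figure D5:**
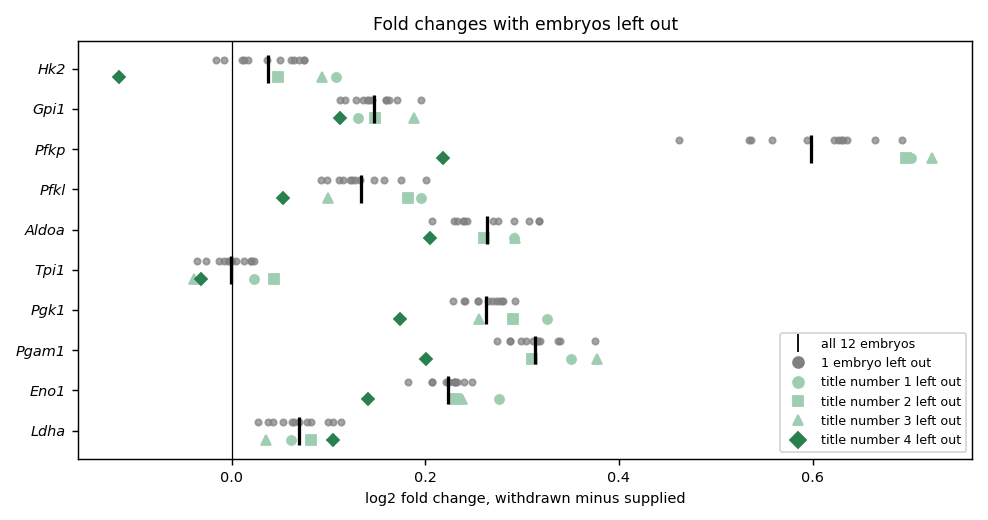
Log2 fold change, withdrawn minus supplied, of each enzyme with all 12 embryos (black bars), with 1 embryo left out (grey) and with all embryos of a title number left out (green). Without title number 4 Pfkp is at 0.22 and Hk2 at -0.12, while Pgk1, Pgam1 and Eno1 are at 0.17, 0.20 and 0.14.

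Promoters of the 4 called enzymes, and of Ldha for contrast, chosen after its value was seen, are shown because the 4 genes rose in the same comparison and because many glycolytic genes are known targets of HIF-1. Each is the 250 bases before an annotated start, from RefSeq (build GRCm38.p6), printed from 5′ to 3′ in the direction of the gene; capitals mark the core of the hypoxia response element, searched as ACGTG or GCGTG on both strands.
Pfkp, chr13:6648772-6649021, minus strand: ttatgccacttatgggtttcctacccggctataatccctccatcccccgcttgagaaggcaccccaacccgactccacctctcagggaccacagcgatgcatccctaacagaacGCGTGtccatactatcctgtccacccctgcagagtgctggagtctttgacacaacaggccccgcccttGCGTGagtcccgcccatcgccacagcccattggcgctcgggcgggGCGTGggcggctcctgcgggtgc
Pgk1, chrX:106186850-106187099, plus strand: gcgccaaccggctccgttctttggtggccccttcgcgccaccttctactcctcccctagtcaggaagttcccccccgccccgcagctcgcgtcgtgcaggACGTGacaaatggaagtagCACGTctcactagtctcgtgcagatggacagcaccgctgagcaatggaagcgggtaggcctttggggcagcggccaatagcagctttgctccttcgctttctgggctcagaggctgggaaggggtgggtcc
Pgam1, chr19:41911621-41911870, plus strand: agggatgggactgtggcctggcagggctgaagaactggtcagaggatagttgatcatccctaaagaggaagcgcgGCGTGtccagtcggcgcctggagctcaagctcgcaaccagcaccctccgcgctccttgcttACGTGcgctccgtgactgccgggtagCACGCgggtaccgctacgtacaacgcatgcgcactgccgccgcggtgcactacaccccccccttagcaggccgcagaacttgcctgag
Eno1, chr4:150236947-150237196, plus strand: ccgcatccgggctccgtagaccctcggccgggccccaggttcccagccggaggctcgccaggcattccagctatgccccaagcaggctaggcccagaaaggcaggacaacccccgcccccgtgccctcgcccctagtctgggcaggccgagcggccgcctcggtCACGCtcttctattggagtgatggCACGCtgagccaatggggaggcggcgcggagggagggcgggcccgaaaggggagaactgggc
Ldha, chr7:46845554-46845803, plus strand: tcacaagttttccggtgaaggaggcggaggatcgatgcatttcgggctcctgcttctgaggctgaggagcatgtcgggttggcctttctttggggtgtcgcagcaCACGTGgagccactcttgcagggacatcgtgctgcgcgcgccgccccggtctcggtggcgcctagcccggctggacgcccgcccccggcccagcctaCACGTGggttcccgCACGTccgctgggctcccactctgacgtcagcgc

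In all, 8 of the 10 genes held the core in at least 1 of their windows, and 12 of their 15 windows did, or 80%, against 38.6% of all 32851 RefSeq windows of that length. Some of those windows overlap, since Eno1 and Aldoa have several neighbouring starts. Both letter strings contain a CpG, and the GC content of the windows had a median of 62.8% for the enzymes and 52.4% for all genes, so the shares were not compared at equal base composition. The core was found for all 4 called enzymes and for 4 of the 6 others, Hk2, Pfkl, Aldoa and Ldha; no match was found for Gpi1 and Tpi1. The E-box CACGTG, which contains the core, was found for Ldha only, in its printed window and not in its other one. Of all windows 6.02% held it, which is a share of windows and not of genes. Of the windows printed, that of Ldha held 5 cores, a CACGTG counting once on each strand, that of Pgk1 held 2, and those of Pfkp, Pgam1 and Eno1 held 3, 3 and 2. The Ldha window not printed held 1, and those of Eno1 not printed held 1 and 2. A match describes letters in this window and is not a binding site.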

How the data were processed

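The authors deposited normalized log2 expression values per gene and embryo. Per the submitters' processing notes, TopHat2 2.0.13 was among the tools, with Trim Galore 0.4.0 and FastQC, DESeq2 1.10.1 and the build mm9. Which annotation and counter were used, and which log2 transformation, is not given in the sources used here. If the transformation shrinks poorly covered genes, fold changes of low genes are understated. Per the labels' protocols, 1 µg of total RNA per library entered a SMART-based kit.

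Genes with a mean of at least 3.32 (log2 of 10) were kept, which left 12432 and dropped 84. Limma 3.58.1 in R 4.3.3 compared the diets on the log2 scale, two-sided, with a variance trend and Benjamini-Hochberg adjustment over all genes kept; SE is the moderated one. The fit was tested on simulated data. The isoenzyme pairs were compared over all 924 arrangements of the embryos. The members and gene lists were chosen with earlier results of these data known. Named are all members, every called gene of each list, the 2 genes with the smallest p where fewer than 2 were called, and the genes of the isoenzyme pairs; Gapdh, Ldhc, Hif1a, Mpc2, Pdk3 and Pdp1 were named after their values were seen. Older symbols were matched through RefSeq synonyms. Alternatives changed the filter, scaling, variance model, weights, dependence of embryos (statmod 1.5.0), covariate, test and embryos. Chosen after seeing the data were the pairs and lists without title number 4, the lists with the covariate, and the sum of Eno1 and Gm5506.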

Additional observations from a re-analysis of the deposited data

Results flagged for a closer look

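In groups of 6, 3 of 50 sets of values held an embryo set apart from the rest by more than 0.625 of the group's range, where chance gives about 1 in 20. Pgam1 in supplied replicate 4 was 9.76, against 9.47 in the next supplied embryo. Eno1 in supplied replicate 5 was 7.35, against 7.55 in the next. Idh3b in supplied replicate 5 was 9.78, against 9.94 in the next.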

How the results depend on the processing

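Depth is unknown, so small differences of low genes cannot be weighed against counting error. Leaving out title number 4 ended the calls of all 4 enzymes: 0 were called, and 49 of all genes. Counts of all genes and of enzymes called were 298 and 0 with embryos of a title number and diet averaged, 1 and 0 with the somatic covariate, 558 and 2 by the exact permutation test, and 729 and 2 without title number 1. All genes called were 886 with a random effect of title number and diet, 2723 at a threshold of 0.10, and 808 to 2315 without 1 embryo (lowest without supplied replicate 5, highest without supplied replicate 4). With title number as a replicate block 2062 genes and 5 enzymes were called, Aldoa being added (adjusted p = 0.0124). For each number and diet, embryos were averaged and the mean of their diet was subtracted. For numbers 1 to 4 these deviations correlated across genes, between the diets, at 0.27, -0.104, 0.178 and -0.171. The main fit did not take the numbers as pairs. Tpi1, at -0.00066, was 0.0159 with median centring, 0.0339 with quantile normalization, 0.0101 with the covariate, 0.0229 without title number 1, 0.0436 without number 2 and -0.0360 to 0.0227 without 1 embryo. Hk2, at 0.04, was -0.0310 with array weights, -0.0043 averaged, -0.0113 with the covariate, -0.1164 without number 4 and -0.0161 to 0.0746 without 1 embryo. Hk2 minus Hk1, Pfkp minus Pfkl, Pfkp minus Pfkm and Ldha minus Ldhb, in that order, were -0.3359, 0.3355, 0.3878 and -0.2102 averaged, and -0.371, 0.1649, 0.122 and -0.1014 without number 4, none past the threshold; without 1 embryo the last 3 ranged from 0.3296 to 0.5706, 0.4353 to 0.7211 and -0.304 to -0.1821. Averaging and left-out numbers leave fewer embryos; otherwise the cause was not tested.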
